A study of Mus musculus with 9 samples.

Results

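The EGF receptor family and its ligands were followed in cultured mouse pancreatic cancer cells as 10 genes chosen by name. They are the receptors Egfr, Erbb2 and Erbb3, the EGFR ligands Areg, Ereg, Btc, Hbegf, Tgfa and Epgn, and the neuregulin Nrg1. All 10 were found among the 54838 gene identifiers of the count table, and 9 of them, all but Epgn, were among the 13153 genes with enough counts to test. RNA was sequenced from PDA530 Met, a ductal adenocarcinoma line. It was started from a male KPC mouse (a genetic mouse model of pancreatic cancer) of mixed 129/SvJae/C57Bl/6 background, from a metastasis in the liver. The knockout group was a clone grown from 1 cell after CRISPR/Cas9 editing of Zdhhc20, which encodes a palmitoyltransferase. As the control group served another single-cell clone, nucleofected with those guide RNAs, that had kept Zdhhc20, and the third group was the uncloned parental line. Each group had 3 libraries, and all cells were untreated. Each clone group is therefore repeat samples of a single clone, and the p-values measure the spread between such samples. The effect of the edit and the difference between 1 clone and another cannot be told apart in this design.

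Receptors of the EGF receptor family are receptor tyrosine kinases that pair with one another when a ligand binds, and they pass the signal to the Ras-ERK and PI3K-AKT pathways. ErbB2 has no known ligand of its own and ErbB3 has little kinase activity, so both act mainly in pairs with other family members. The ligands are made as membrane-anchored precursors that proteases of the ADAM family cut loose. In mouse models of pancreatic cancer EGFR is known to contribute to the start of tumours, and EGFR is a known substrate of ZDHHC20.

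The libraries held 16525869 to 23192701 counts each. Zdhhc20 was lower in the knockout clone (33.9 to 42.5 CPM, counts scaled to the TMM-adjusted library size) than in the control clone (85.8 to 123 CPM; log2 difference -1.53, SE 0.15, adjusted p = 6.97e-05) and the parental line (75.3 to 90.7 CPM; log2 difference -1.12, SE 0.15, adjusted p = 5.85e-04). Of 8 markers of ductal epithelium, 7 were at 1 CPM or more in every library, while Epcam stayed at 0.118 to 0.635 CPM. Their summed level was 4343 to 4474 CPM across the knockout libraries, 7038 to 9406 CPM in those of the control clone and 6734 to 8206 CPM in those of the parental line. Endocrine markers were at 0 counts in all 9 libraries, as were Cpa1, Ctrb1 and Ptf1a of acinar cells, Dcn of fibroblasts and Adgre1 and Cd3e of leukocytes. The markers of other cell types were not all absent. The summed acinar markers, nearly all from Cela1, were at 1.22 to 1.32 CPM in knockout, 3.99 to 7.66 CPM in control and 1.64 to 2.94 CPM in parental libraries. The fibroblast sum, mainly Pdgfra and Col1a1, was 0.818 to 1.67, 1.31 to 2.89 and 3.12 to 4 CPM, and the leukocyte sum, mostly Cd68, was 0.835 to 1.17, 1.43 to 2.66 and 1.25 to 2 CPM. The endothelial sum was 0.118 to 0.525 CPM over all libraries. Their part in the results was not tested.

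The control clone varied more between its libraries than the other groups did, and most of the family varied with it. Among 10020 genes that averaged 5 CPM or more, 22.3% in control replicate 2 and 21.3% in control replicate 3 differed by 0.5 or more on the log2 scale from the mean of the other 2 control libraries. The same share was 4.26% in control replicate 1 and 0.749% to 2.5% in the libraries of the other groups. By the same measure, 6 of the 9 tested family genes were that far off in control replicate 2, 5 in replicate 3 and 2 in replicate 1. For those 6 genes, replicates 1 and 3 lay on the same side of replicate 2. Egfr (1.06), Ereg (0.91), Hbegf (0.69) and Nrg1 (1.54) lay above the other control libraries by these log2 amounts, while Erbb3 (-1.47) and Btc (-1.07) lay below them. Erbb2 (-0.31), Areg (0.37) and Tgfa (0.13) were closer. Differences of the family genes between the 2 clones are given with and without replicate 2, which was singled out after its values were seen. By the shares above, replicate 3 was nearly as far off over all genes as replicate 2. Leaving out replicate 3 gave 4102 genes at an adjusted p under 0.05 in the control clone set against the parental line. Leaving out replicate 2 gave 3930. Without replicate 3 the log2 differences between the clones were -0.15 for Ereg, -0.07 for Hbegf and -0.17 for Nrg1. What set either library apart was not tested.

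**Figure D1:**
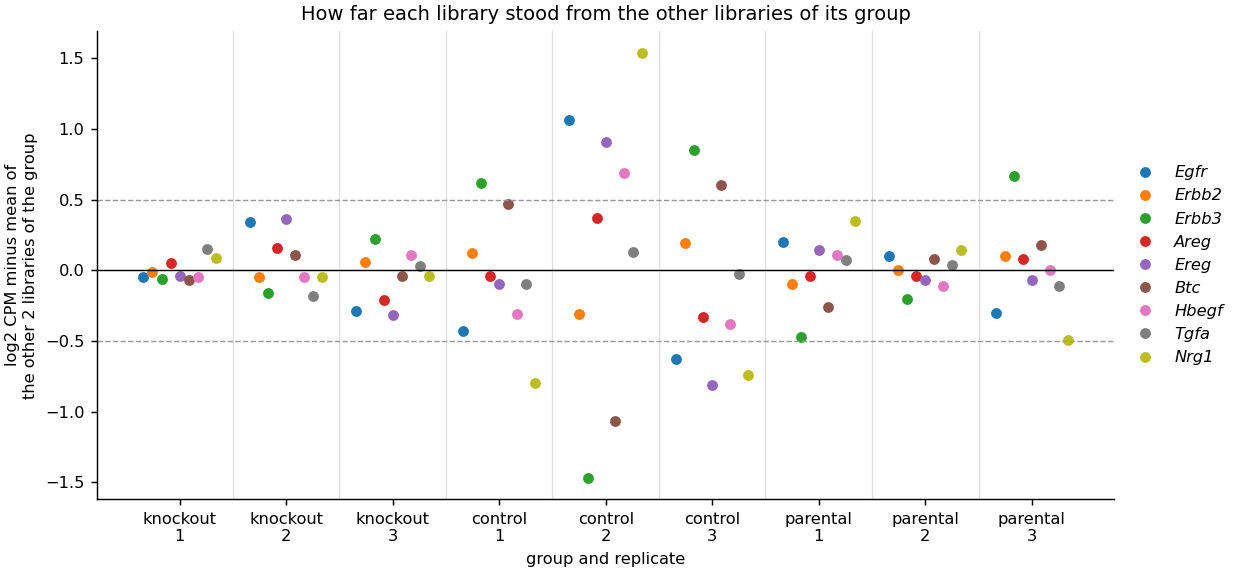
Deviation of each family gene (log2) in each library from the mean of the other 2 libraries of its group, 9 genes in 9 libraries. In control replicate 2, 6 of the 9 genes lie 0.5 or more away, with Nrg1 at 1.54 and Erbb3 at -1.47.

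In the knockout clone, 2 ligands of EGFR were higher than in both other groups, as were 8.19% of all tested genes. The receptor Erbb3 was lower than in both, as were 13.4%. Its call against the parental line was close to the threshold (adjusted p = 0.0484). Against the control clone, 4 of the 9 tested family genes passed the test, with Areg and Tgfa higher and Erbb2 and Erbb3 lower, where 42.9% of all tested genes passed (18.7% higher and 24.2% lower). Against the parental line, 4 of 9 passed, with Areg, Tgfa and Nrg1 higher and Erbb3 lower, where 31.4% of all tested genes passed (13.1% higher and 18.3% lower). In the control clone set against the parental line, Tgfa was the 1 family gene called, where 21.4% of all tested genes passed (10.4% higher and 11.0% lower). In the first comparison the share of family genes called was close to that of all genes, and no result about the family as a whole is read from these counts. The median log2 difference of the 9 genes was 0.06, 0.03 and 0.15 in these comparisons, against -0.02, -0.01 and 0.01 over all tested genes. Both comparisons of the knockout clone share its 3 libraries. These are bulk RNA levels, in which fewer cells that express a gene and less RNA per cell cannot be told apart.

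**Figure D2:**
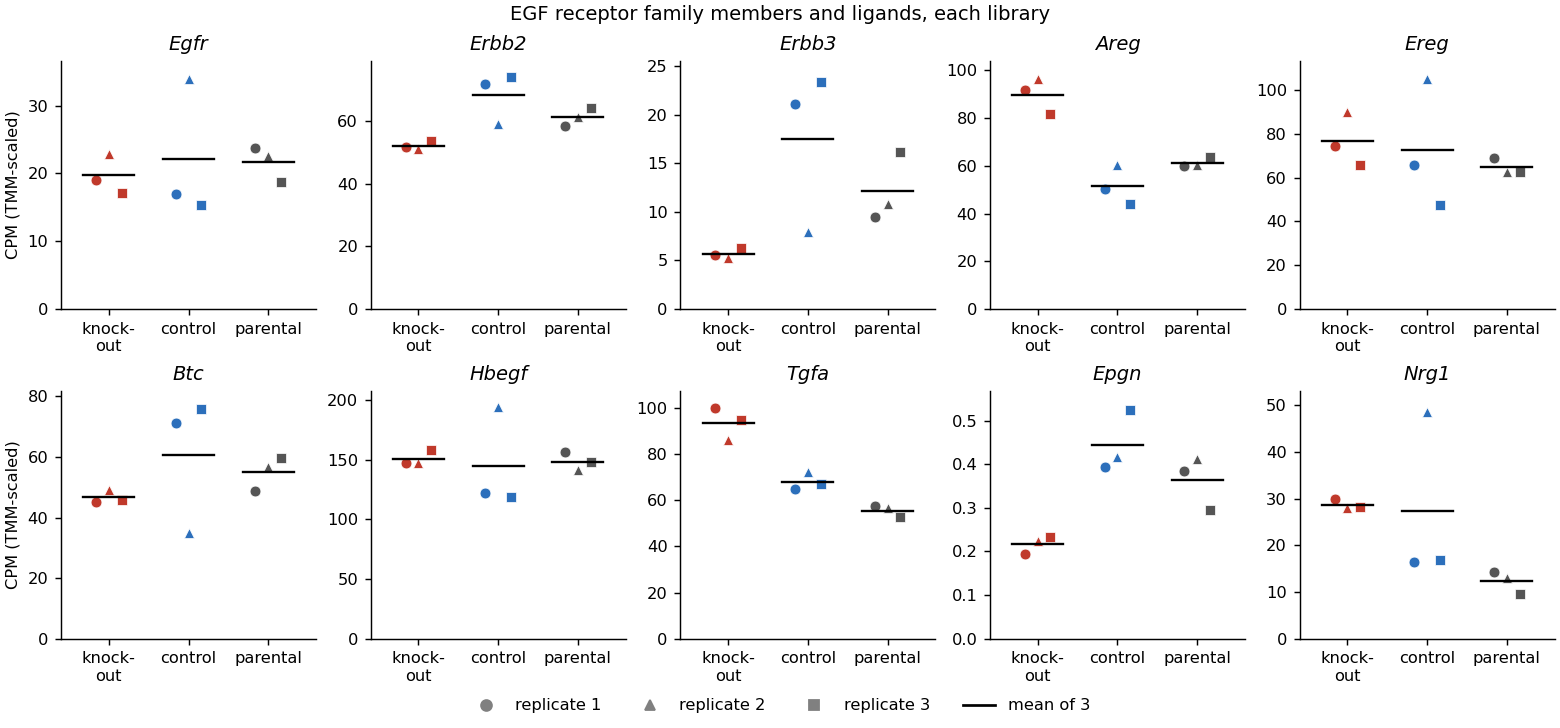
Level of each of the 10 family genes (CPM) in every library of the knockout clone, the control clone and the parental line, with group means. The Areg libraries of the knockout clone (81.5 to 96.3 CPM) and its Tgfa libraries (86 to 100.0 CPM) lie above all 6 others, and its Erbb3 libraries (5.29 to 6.31 CPM) below them.

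Among the receptors, Erbb3 was lower in the knockout clone than in both other groups, Erbb2 was lower than in the control clone alone, and Egfr was not called in any comparison. Egfr (ENSMUSG00000020122, chr11:16752203-16918158, GRCm38), the receptor that all 6 of the EGFR ligands bind, was at 19.1, 22.9 and 17.1 CPM across the knockout libraries. The control clone had 16.9, 33.9 and 15.4 CPM, and the parental line 23.7, 22.6 and 18.8 CPM. The groups overlapped, and control replicate 2 held the highest value of all 9. The log2 difference of the knockout clone was -0.16 from the control clone (95% interval -0.77 to 0.45, adjusted p = 0.659) and -0.14 from the parental line (95% interval -0.75 to 0.47, adjusted p = 0.729). Both intervals are wide enough to hold a decrease as large as that of Erbb2, so equal levels are not shown. Without control replicate 2 the difference from the control clone turned to 0.28 (adjusted p = 0.125).

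Erbb3 (ENSMUSG00000018166, chr10:128567523-128589652), the partner receptor that binds neuregulins and recruits PI3K, showed the largest log2 difference from the control clone among the tested family genes. Its knockout libraries had 5.52, 5.29 and 6.31 CPM. The control clone had 21.1, 7.97 and 23.4 CPM, and the parental line had 9.49, 10.8 and 16.2 CPM. All 3 knockout libraries lay below the other 6, with control replicate 2 the lowest of the control clone. Erbb3 was 3.08-fold lower than in the control clone (log2 difference -1.62, SE 0.37, adjusted p = 0.00617) and 2.13-fold lower than in the parental line (-1.09, SE 0.37, adjusted p = 0.0484). Without control replicate 2 the first value was -1.96. The call against the parental line was close to the threshold and was lost with limma voom (adjusted p = 0.113), with a minimum mean of 5 CPM (0.0531) and when any library other than control replicates 2 and 3 was left out. Of all tested genes, 24.2% were lower than in the control clone and 18.3% lower than in the parental line. Of the 8 ductal markers, 5 were also lower than in the control clone and 5 lower than in the parental line. Krt8, Krt18, Krt19 and Cdh1 were among them both times, and Krt19 was at 155 to 185 CPM across the knockout libraries, 823 to 1993 CPM in those of the control clone and 913 to 1520 CPM in those of the parental line. Krt7 was not called against the parental line and Sox9 against either group. Epcam was higher than in both, at low levels (means of 0.61 CPM against 0.15 and 0.198 CPM). The part of these markers in the Erbb3 result was not tested.

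Erbb2 (ENSMUSG00000062312, chr11:98412470-98437716), the ligandless receptor that is the favoured partner of the others, was at 51.7, 51 and 53.6 CPM in the knockout clone. The control clone had 71.8, 59 and 74.3 CPM and the parental line had 58.6, 61.5 and 64.4 CPM. The knockout libraries lay below the other 6, by a smaller margin than for Erbb3. Erbb2 was 1.31-fold lower than in the control clone (log2 difference -0.39, SE 0.09, adjusted p = 0.00855). The difference from the parental line was -0.24 (SE 0.09, adjusted p = 0.0824) and was called without control replicate 2 (adjusted p = 0.0138). Mien1 overlaps the end of Erbb2 on the other strand, at 18.5 to 42 CPM, and whether the counting used strand is not given in the sources used here. Genes of few counts also overlap Egfr (Egfros, 106 counts in all), Ereg (Gm19610, 206) and Nrg1 (Gm26578, 30).

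Amphiregulin and TGF-alpha were the EGFR ligands that were higher in the knockout clone than in both other groups. Areg (ENSMUSG00000029378, chr5:91139599-91148432) encodes amphiregulin, a ligand of low affinity for EGFR that is also a common target gene of the signal itself. The values were 91.7, 96.3 and 81.5 CPM across the knockout libraries, 50.2, 60.5 and 43.9 CPM in those of the control clone and 60, 60.2 and 63.6 CPM in those of the parental line. Each knockout library was above the other 6, and the control clone and parental line overlapped. Areg was 1.74-fold higher than in the control clone (log2 difference 0.80, SE 0.12, adjusted p = 6.10e-04) and 1.47-fold higher than in the parental line (0.55, SE 0.12, adjusted p = 0.00651).

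Tgfa (ENSMUSG00000029999, chr6:86195223-86275719), which encodes TGF-alpha, a ligand that binds EGFR alone, was at 100.0, 86 and 95 CPM in the knockout clone. The control clone had 64.9, 72.3 and 67.1 CPM and the parental line had 57.4, 56.6 and 52.7 CPM. The 3 groups did not overlap: the knockout clone was highest and the parental line lowest. Tgfa was 1.38-fold higher in the knockout libraries than in the control clone (log2 difference 0.46, SE 0.08, adjusted p = 0.00184) and 1.69-fold higher than in the parental line (0.75, SE 0.08, adjusted p = 2.14e-04). The control clone also exceeded the parental line (0.29, SE 0.08, adjusted p = 0.0334), a call that was lost with several other settings, among them scaling to total counts (adjusted p = 0.0558). The calls of Areg and Tgfa in the knockout clone held under every alternative test, filter, scaling and left-out library that was run with the adjusted p as the sole threshold. Of all tested genes, 8.19% were higher in the knockout clone against each of the other groups, and 13.4% were lower against each. All 3 knockout libraries lay above the other 6 in 15.6% of tested genes and below them in 18.6%.

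**Figure D3:**
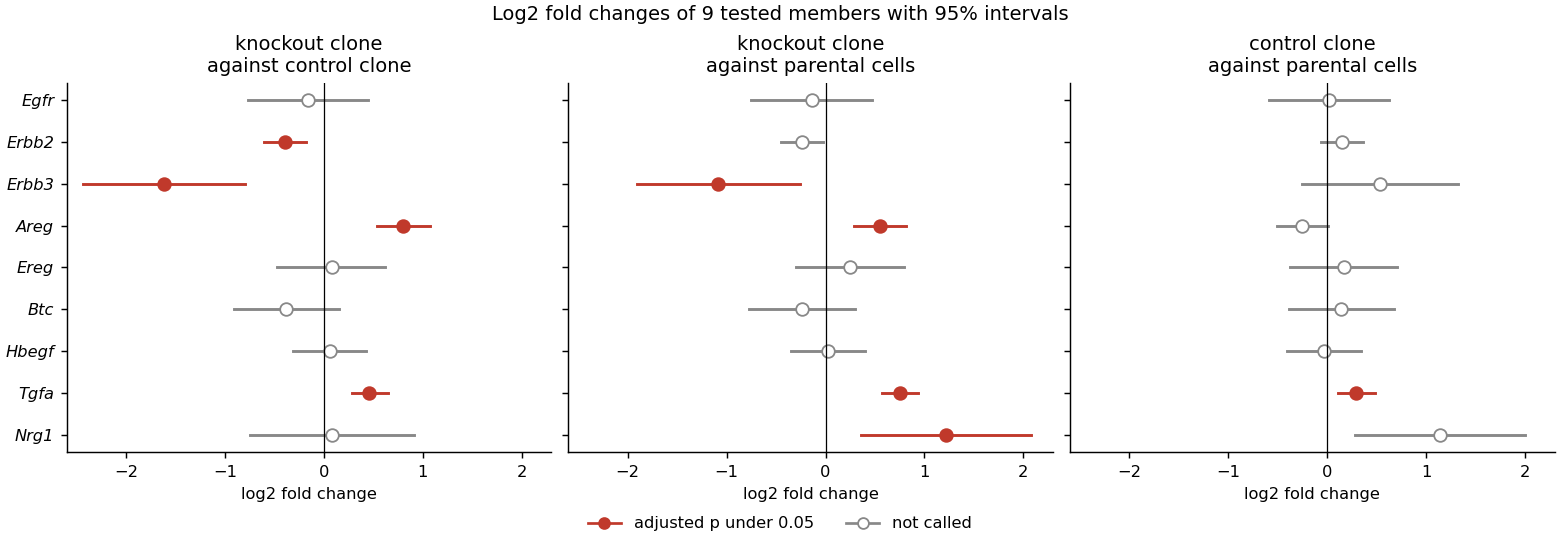
Log2 difference with its 95% interval for the 9 tested family genes in the 3 comparisons. The intervals of Areg and Tgfa lie above 0 in both comparisons of the knockout clone and those of Erbb3 below 0, while the intervals of Egfr, Ereg and Hbegf include 0 in all 3.

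The promoters of the family genes that differed between the clones are shown for the 3 that were matched in a RefSeq promoter table. RefSeq entries (GRCm38.p6) were matched for 6 of the 10 genes, namely Egfr, Erbb2, Areg, Btc, Tgfa and Epgn. Erbb3, Ereg, Hbegf and Nrg1 were not matched in the promoter table used. The 250 bases before each start site are given 5′ to 3′ on the gene's strand, with matches to the searched motifs in capitals.
Areg, chr5:91139349-91139598 (+): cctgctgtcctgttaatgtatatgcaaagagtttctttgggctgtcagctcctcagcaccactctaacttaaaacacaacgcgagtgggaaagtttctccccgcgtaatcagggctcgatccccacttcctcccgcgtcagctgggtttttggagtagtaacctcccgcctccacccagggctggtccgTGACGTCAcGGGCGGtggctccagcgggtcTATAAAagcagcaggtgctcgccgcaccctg
Tgfa, chr6:86194972-86195221 (+): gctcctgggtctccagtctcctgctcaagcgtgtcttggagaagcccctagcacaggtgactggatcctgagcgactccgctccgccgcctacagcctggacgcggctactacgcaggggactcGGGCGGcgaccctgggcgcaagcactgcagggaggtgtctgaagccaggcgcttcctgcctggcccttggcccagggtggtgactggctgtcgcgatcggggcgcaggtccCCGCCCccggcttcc
Erbb2, chr11:98412234-98412483 (+): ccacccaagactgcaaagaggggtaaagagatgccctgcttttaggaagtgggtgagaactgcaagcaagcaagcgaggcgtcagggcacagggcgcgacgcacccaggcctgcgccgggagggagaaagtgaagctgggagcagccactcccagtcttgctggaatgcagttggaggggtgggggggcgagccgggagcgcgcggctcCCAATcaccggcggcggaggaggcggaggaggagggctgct
The motifs were TGACGTCA (the cyclic AMP response element, found in 1.55% of 32851 RefSeq promoter windows of the same length), TGANTCA (the AP-1 motif, 6.75%), GGGCGG (the GC box, 32.7%), CCAAT (33.8%) and TATAAA (the TATA box, 12.4%), each searched on both strands. The matches shown did not overlap one another. The Areg window held TGACGTCA at 61 to 54 bases before the start site, GGGCGG at 52 to 47 and TATAAA at 31 to 26. The Tgfa window held 2 GC boxes, at 126 to 121 bases and, on the other strand, at 15 to 10 bases before its start. The Erbb2 window held CCAAT at 41 to 37 bases before its start. None of the 6 windows held TGANTCA.

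Of the remaining EGFR ligands, Hbegf, Ereg and Btc were called in no comparison, and Epgn was too low to test. Hbegf (ENSMUSG00000024486, chr18:36504927-36515805), the heparin-binding ligand, was the family gene with the highest CPM, at 147, 147 and 158 CPM across the knockout libraries, 122, 194 and 119 CPM in those of the control clone and 156, 141 and 148 CPM in those of the parental line. The 3 groups overlapped, and the control clone alone spanned all the other libraries. Its log2 difference in the knockout clone was 0.06 from the control clone (95% interval -0.31 to 0.43, adjusted p = 0.797) and 0.03 from the parental line (95% interval -0.35 to 0.40, adjusted p = 0.92). Ereg (ENSMUSG00000029377, chr5:91074622-91093646), which encodes epiregulin, was at 74.6, 89.9 and 65.7 CPM across the knockout libraries, 65.9, 105 and 47.5 CPM in those of the control clone and 69.1, 62.6 and 62.4 CPM in those of the parental line. Its differences in the knockout clone were 0.08 (adjusted p = 0.818) and 0.25 (adjusted p = 0.477). Btc (ENSMUSG00000082361, chr5:91357261-91402994), which encodes betacellulin, was at 45.2, 49.2 and 45.7 CPM across the knockout libraries, 71.3, 34.9 and 75.9 CPM in those of the control clone and 48.7, 56.8 and 59.7 CPM in those of the parental line. For Ereg the highest control library was replicate 2, and for Btc it was the lowest. The Btc difference from the control clone was -0.38 (95% interval -0.91 to 0.15, adjusted p = 0.223) and from the parental line -0.24 (adjusted p = 0.486), which was called when those 2 groups were fitted alone (adjusted p = 0.0304).

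Epgn (ENSMUSG00000035020, chr5:91027464-91035215), which encodes epigen, had 4, 4 and 4 counts in the knockout clone, 9, 7 and 10 in the control clone and 8, 7 and 5 in the parental line. The knockout libraries were the lowest of the 9. With no filter on low counts, its log2 difference was -1.0 from the control clone (adjusted p = 0.278) and -0.73 from the parental line (adjusted p = 0.539), so a difference was not detectable at this depth.

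Nrg1 (ENSMUSG00000062991, chr8:31814551-32884029), which encodes neuregulin 1, a ligand of ErbB3, was higher in the knockout libraries than in the parental ones. The values were 29.8, 28 and 28.1 CPM across the knockout libraries and 14.3, 13 and 9.65 CPM in the parental line, a 2.32-fold difference (log2 difference 1.22, SE 0.38, adjusted p = 0.0376). The control clone had 16.4, 48.6 and 16.8 CPM, so that its replicate 2 was the highest library of all and the other 2 lay between the knockout clone and the parental line. The difference between the knockout and control clones was 0.08 (SE 0.37, adjusted p = 0.883), and that of the control clone from the parental line was 1.14 (SE 0.38, adjusted p = 0.0625). The latter was called with DESeq2 (adjusted p = 0.0127) and with no filter on low counts (adjusted p = 0.00829), and was 0.43 without control replicate 2 (adjusted p = 0.0521). All 3 parental libraries lay below the other 6 for Nrg1 and Tgfa, as in 6.45% of all tested genes, and Tgfa was called lower in the parental line against both clones, as were 2.14%. The Nrg1 call against the parental line was lost when any knockout or parental library was left out (adjusted p = 0.064 to 0.126).

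Control replicate 2 was singled out after its values in these genes were seen. The calls below therefore only describe how the fit depends on that library. Without control replicate 2, 8 of the 9 tested family genes were called between the knockout and control clones, a share that was 53.5% for all tested genes. Ereg (0.44, adjusted p = 0.0369), Hbegf (0.33, adjusted p = 0.00435) and Nrg1 (0.79, adjusted p = 0.00129) were then higher in the knockout clone, and Btc (-0.65, adjusted p = 3.43e-04) was lower. Areg stood at 0.94, Tgfa at 0.51, Erbb2 at -0.48 and Erbb3 at -1.96. Egfr was the family gene that was still not called. Against the parental line, 5 of 9 were called, where 42.2% of all tested genes were, and for the control clone set against the parental line 6 of 9, where 29.2% were. The knockout clone then differed from both other groups in Areg, Tgfa and Nrg1, higher (13.6% of all tested genes), and in Erbb2 and Erbb3, lower (17.3%). The control clone differed from both others in as many, with Erbb2, Erbb3 and Btc higher (10.8% of all tested genes) and Areg and Hbegf lower (9.86%).

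Compared per kilobase of exon, the ligands Areg and Hbegf had the highest levels and the receptor Egfr one of the lowest. The mean over the 9 libraries was 55.6 CPM per kb for Areg, 30.6 for Hbegf, 17.3 for Ereg, 12 for Btc, 11.6 for Erbb2 and 11.2 for Tgfa. Nrg1 was at 2.2, Erbb3 at 1.96, Egfr at 1.87 and Epgn at 0.189 CPM per kb. From Areg to Tgfa the range of each gene over the libraries overlapped that of the next, as it did from Nrg1 to Egfr, and Epgn lay below all others. Areg, Hbegf and Ereg came in this order in each group by their means, while the genes below them changed places: Tgfa (14.4) was above Btc (10.3) and Erbb2 (10) in the knockout clone, and Nrg1 (1.19) was below Erbb3 (2.02) and Egfr (1.92) in the parental line. The order also changed when the longest transcript was used as the length. Hbegf (50.1 and 51.2 CPM per kb) then stood above Areg (42.4 and 50.4) in the control clone and the parental line. By the mean over all 9 libraries, Tgfa then stood above Btc and Erbb2, and Egfr above Erbb3.

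**Figure D4:**
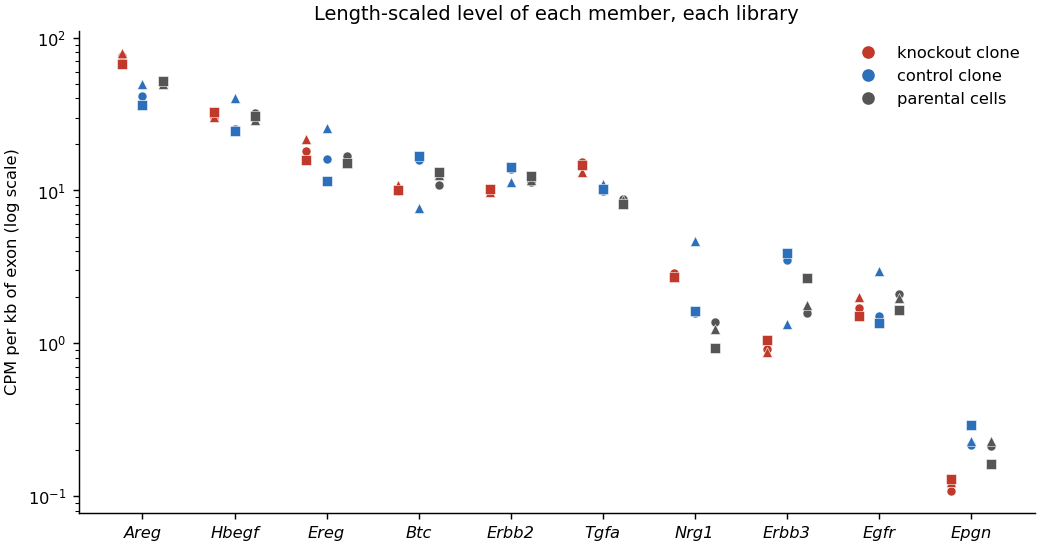
Level per kilobase of exon (CPM per kb, log axis) of the 10 family genes in the 9 libraries, with colours for the groups and circles, triangles and squares for replicates 1, 2 and 3. Areg (mean 55.6) and Hbegf (30.6) are at the top, Nrg1, Erbb3 and Egfr lie close together near 2.2, 1.96 and 1.87, and Epgn is at 0.189.

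The summed level of the 6 EGFR ligands was 149 ± 7.58 CPM per kb in the knockout clone, 114 ± 18.1 in the control clone and 118 ± 2.14 in the parental line (mean ± SD, n = 3 libraries each). Areg made up 49.7% ± 1.74 of that sum in the knockout clone, 37.1% ± 0.887 in the control clone and 42.9% ± 0.994 in the parental line (SD, n = 3). The libraries of the 3 groups did not overlap in this share, and control replicate 2, at 37%, lay between its fellow libraries at 38% and 36.3%. With the longest transcript as the length the Areg shares were 41.7% ± 2.03, 30.2% ± 0.997 and 35.2% ± 0.995 (SD, n = 3), and the groups again did not overlap. The 3 receptors summed to 12.7 ± 0.152 CPM per kb in the knockout clone, 18 ± 2.06 in the control clone and 15.7 ± 0.907 in the parental line. Erbb2 was the main part of that sum, at 78.8% ± 1.52, 72.9% ± 0.519 and 75% ± 0.936. No test was run on these sums and shares, which follow from the genes above.

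Epgn, Ereg, Areg and Btc lie together on chromosome 5 within 376 kb (chr5:91027464-91402994), and the genes beside them differed in direction in the knockout clone. Mthfd2l, a mitochondrial folate enzyme on the Epgn side, was higher by 0.47 on the log2 scale than in the control clone (adjusted p = 0.00181) and by 0.69 than in the parental line (adjusted p = 3.97e-04). Cxcl1, a chemokine on the same side, was higher by 1.56 (adjusted p = 5.14e-04) and 1.86 (adjusted p = 3.67e-04), from 1.98 and 1.6 CPM to 5.82 CPM. Parm1, on the Btc side, was lower (-1.06, adjusted p = 4.06e-05, and -0.59, adjusted p = 0.00141). Cxcl3, Rchy1 and Thap6, the other neighbours considered, were not called. Within the cluster itself, Areg alone was called in the fit of all 9 libraries, and Epgn was not tested. Without control replicate 2, Ereg and Btc were also called between the clones. Btc was called between the knockout clone and the parental line when those 2 groups were fitted alone.

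The rest of the family had low levels or none detected. Erbb4, the remaining receptor, had 0 counts in all 9 libraries, which allows a level of up to 0.0177 CPM over the libraries together, for counting error only. Egf was at 1.29 ± 0.299, 1.48 ± 0.343 and 1.52 ± 0.473 CPM (SD, n = 3) in the knockout clone, control clone and parental line. Nrg2 was at 1.73 ± 0.197, 1.62 ± 0.278 and 2.14 ± 0.802 CPM, and neither gene was called in any comparison. Nrg3 had 1 count in all. Nrg4 had 0 counts in each knockout library, 0, 0 and 1 in the control clone and 4, 8 and 8 in the parental line, too few to test.

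Of 90 other genes of the pathway in 5 lists, 89 were tested. Between the knockout and control clones 21 were higher (23.6%) and 31 lower (34.8%), against 18.7% and 24.2% of all tested genes. Against the parental line 12 were higher (13.5%) and 21 lower (23.6%), against 13.1% and 18.3%. In the control clone set against the parental line 15 were higher (16.9%) and 7 lower (7.87%), against 10.4% and 11.0%. The knockout clone had 8 of them higher than each other group (8.99%, against 8.19% of all tested genes) and 17 lower (19.1%, against 13.4%). Without control replicate 2 these were 15 higher (16.9%, against 13.6%) and 24 lower (27%, against 17.3%). Nothing is read from these counts about the pathway as a whole. The median log2 difference over the 89 genes was -0.00, -0.04 and -0.03 in the 3 comparisons, against the -0.02, -0.01 and 0.01 over all tested genes.

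Of 12 tested sheddases and ligand-processing genes, 3 were higher and 6 lower than in the control clone (75% called). Against the parental line 1 was higher and 3 lower (33.3%). In the control clone set against the parental line 6 were higher and 1 lower (58.3%). The shares of all tested genes called were 42.9%, 31.4% and 21.4%, and the same backgrounds hold for the lists that follow. Adam10, a main sheddase of betacellulin, was at 201 ± 2.97 CPM across the knockout libraries, 369 ± 66.9 CPM in those of the control clone and 415 ± 22.5 CPM in those of the parental line (SD, n = 3), a log2 difference of -0.87 and -1.05. Timp3, a secreted inhibitor of these proteases, was at 2.91 ± 0.188, 50.3 ± 8.52 and 10.4 ± 0.745 CPM, and was lower (-4.11 and -1.84). The control clone itself had more Timp3 than the parental line (log2 difference 2.27, adjusted p = 2.28e-05). Adam12, a protease that can shed HB-EGF, was higher (1.08 and 1.17), and its calls were lost without control replicate 1 and without knockout replicate 1 or parental replicate 3, respectively.

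Of 23 adaptors and signal transducers, 7 were higher and 5 lower than in the control clone (52.2% called), and 3 were higher and 3 lower than in the parental line (26.1%). In the control clone set against the parental line 1 was higher and 5 lower (26.1%). The docking proteins Gab2 and Gab1 went in opposite directions. Gab2 rose to 42.4 ± 2.1 CPM, from 17.8 ± 6 CPM (control) and 21.1 ± 2.67 CPM (parental; log2 differences 1.25 and 1.0). Gab1 fell to 1.58 ± 0.221 CPM from 9.05 ± 1.06 and 12.2 ± 0.651 CPM (-2.52 and -2.95). Sos1, the Ras exchange factor, was higher (0.61 and 0.56). Stat5a, a transcription factor, was lower (-1.04 and -1.64), though its call against the control clone was lost under 6 alternatives.

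Of 17 receptor inhibitors and phosphatases, 3 were higher and 5 lower than in the control clone (47.1% called). Against the parental line 6 were higher and 5 lower (64.7%). In the control clone set against the parental line 2 were higher and 1 lower (17.6%). The ubiquitin ligases of the Cbl family, which mark EGFR for degradation, did not move together: Cblb was higher (1.22 and 0.91), Cbl lower (-0.87 and -0.68) and Cblc lower (-1.41 and -1.76, with calls lost under 5 and 3 alternatives). Errfi1, an inhibitor of the EGFR kinase that the signal itself induces, was higher (0.81 and 1.28), as was the phosphatase Ptprk (0.60 and 0.42). Tob1, an antiproliferative protein, was lower (-1.40 and -1.13).

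Of 24 genes of receptor endocytosis and sorting, 6 were higher and 7 lower than in the control clone (54.2% called). Against the parental line 1 was higher and 5 lower (25%). In the control clone set against the parental line 0 were called. Rab11a, of the recycling endosome, was lower (-0.96 in both comparisons), as were the dynamin Dnm2 (-1.05 and -0.79) and the sorting nexin Snx1 (-0.56 and -0.69). Sh3kbp1, a Cbl-binding adaptor, was higher (0.47 and 0.48). Of 13 co-receptors and partners, 2 were higher and 8 lower than in the control clone (76.9% called). Against the parental line 1 was higher and 5 lower (46.2%). In the control clone set against the parental line 6 were higher and 0 lower (46.2%). Integrin beta 4 (Itgb4, -1.91 and -1.18), syndecan 1 (Sdc1, -1.02 and -0.99) and the MSP receptor (Mst1r, -1.13 and -0.63) were lower, and the heparan sulfate proteoglycan Gpc1 was higher (0.92 and 0.67). The calls of the named pathway genes against the control clone held without control replicate 2, and no fold moved by more than 1.43 times (Adam12).

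Of the 17 pathway genes that the knockout clone had lower than either other group, 6 lie on chromosome 9, namely Adam10, Cbl, Dnm2, Rab11a, Snx1 and Mst1r. The 748 tested genes of that chromosome had a median log2 difference of -0.53 in both comparisons of the knockout clone, and 44.8% of them were lower against both other groups. The other 2 pathway genes there, Nck1 and Pik3cb, were not. A change of the chromosome as a whole and a change of these genes cannot be told apart from the RNA levels. No tested family gene lies on chromosome 9.

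**Figure D5:**
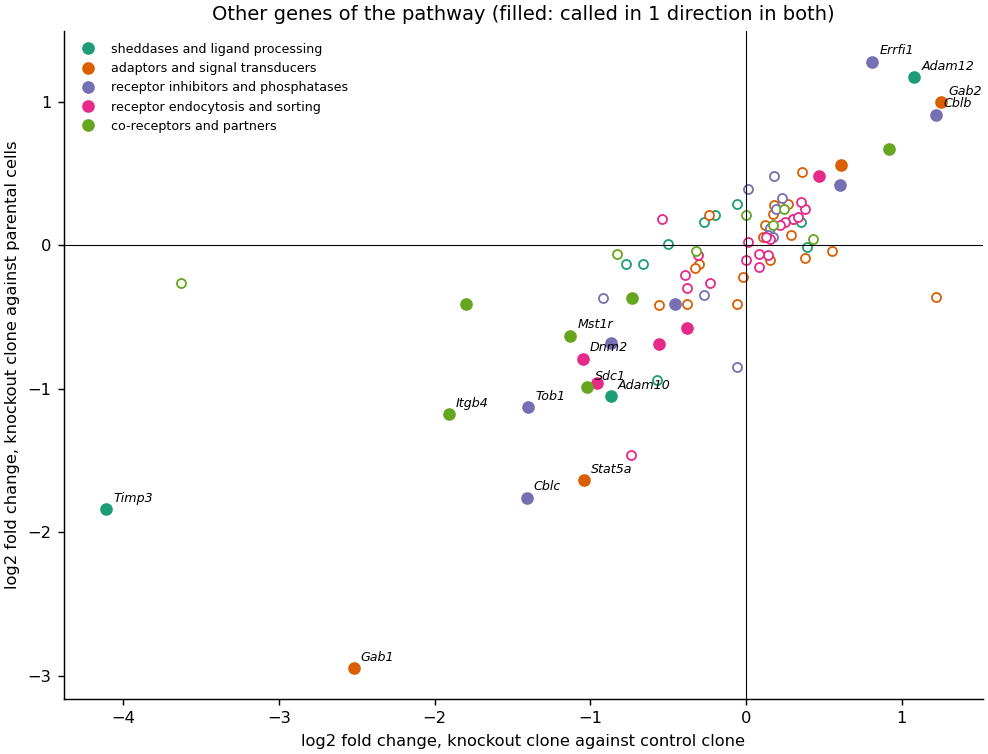
Log2 fold change of the 89 tested pathway genes against the control clone (x axis) and against the parental line (y axis), coloured by list, with filled points for genes called in the same direction in both comparisons. Among the filled points, Timp3 (-4.11 and -1.84) and Gab1 (-2.52 and -2.95) lie farthest down and to the left, and Gab2 (1.25 and 1.0) and Cblb (1.22 and 0.91) farthest to the right.

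The genes whose log2 CPM followed Egfr most closely over the 9 libraries were Sprtn (Pearson r 0.951), Trak2 (0.941) and Xndc1 (0.932), of 10011 genes compared. Without control replicate 2 these values were 0.867, 0.841 and 0.871. Among those that followed Areg most closely were Csnk2b (0.989) and Asna1 (0.988). The points share libraries and groups, so these values only describe likeness.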

How the data were processed

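RNA was measured in 9 libraries, 3 per group (the series' design text writes the line as PDA50 Met, taken here as PDA530 Met), made with the KAPA mRNA HyperPrep kit per the labels' protocols. The authors deposited expected counts per gene for 54838 Ensembl identifiers. STAR 2.5.2, RSEM 1.3.0, DESeq2 1.10.1 and the build GRCm38 are named in the submitters' processing notes; the annotation release and any use of strand in counting are not given in the sources used here. The deposited expected counts are whole numbers and were used as they are. Positions come from GENCODE M21 (GRCm38), which matched 54809 identifiers.

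Genes were kept by filterByExpr (minimum count 10, minimum total 15) and scaled by TMM. All 9 libraries entered 1 edgeR 4.0.16 quasi-likelihood fit (R 4.3.3), with Benjamini-Hochberg adjustment over all 13153 tested genes and calls at an adjusted p under 0.05. SEs are the fitted log2 difference over the square root of F. CPM values are scaled by TMM, and log2 CPM has a prior count of 2. The script was tested on simulated data. Depth was 16525869 to 23192701 counts per library, so that Epgn rested on 4 to 10 counts per library. No 2 libraries of a group agreed within sampling noise.

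The family genes and the pathway and marker lists were chosen with earlier results of these data known. All family genes are named, and from each pathway list up to 3 genes that the knockout clone had higher, and 3 lower, than either other group, ranked by the smaller of both changes. For likeness, the 3 genes with the highest r to Egfr and to Areg were taken, of which 1 is not reported here, and for the ligand cluster its nearest tested neighbours. Alternatives were other scalings, filters, thresholds, DESeq2 1.42.0, limma 3.58.1 (voom), a replicate block, fits of 2 groups alone and each library left out. Promoter sequences are from RefSeq (GRCm38.p6).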

Additional observations from a re-analysis of the deposited data

How the results depend on the processing

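The calls of Areg and Tgfa in both knockout comparisons, and those of Erbb2 and Erbb3 against the control clone, held in all scalings, filters, tests and left-out libraries run with the adjusted p as the sole threshold. Leaving out 1 library gave 4 to 8 family genes called between the knockout and control clones, 2 to 5 against the parental line and 0 to 6 for control against parental. For the pathway genes the ranges were 40 to 62, 23 to 45 and 8 to 35, and for all tested genes 4301 to 7204, 2515 to 5693 and 1472 to 4102. Family genes called against both other groups numbered 2 to 5 in the knockout clone, 0 to 5 in the control clone and 0 to 2 in the parental line; the highest value in both clones came without control replicate 2.

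Stricter thresholds call fewer genes by construction. With an added absolute log2 difference of 1, the family calls were 1, 2 and 0 in the 3 comparisons, the pathway calls 15, 11 and 4, and all calls 1843, 1392 and 851. Family genes apart in the knockout clone were then 1 and in the parental line 0. With glmTreat at a fold of 1.2, the family calls were 3 between the clones (not Erbb2), and against the parental line 2 (knockout) and 0 (control), the pathway calls between the clones 31 and between control and parental line 7, and all calls 3560, 2330 and 1203. Fitting only the groups compared gave 6 family calls, 60 pathway calls and 6840 calls in all between the knockout clone and the parental line. For control against parental it gave 0, 11 and 1525.

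The single family call for control against parental, Tgfa, and with it the parental count, went to 0 with only the groups compared (adjusted p = 0.071), the replicate block (0.0619) and total counts (0.0558), while the DESeq2 test gave 2 in each. With no filter on low counts the call count stayed at 1, but Tgfa was lost (0.0856) and Nrg1 was called (0.00829). The cause was not tested. No consistent pairing by replicate number was seen. Correlations of same-numbered deviations ran from -0.223 to 0.344, and 3 of 9 were over 0.1. In both other groups, 0 of 9 libraries correlated best with their own number. Deviations from means of 3 libraries cannot settle whether some numbers were paired. The replicate block gave 4, 4 and 0 family calls, 53, 34 and 19 pathway calls and 5528, 3941 and 2492 calls in all.

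Signs turned in comparisons that were not called. Between the clones, leaving out 1 library gave -0.36 to 0.28 for Egfr, -0.15 to 0.44 for Ereg, -0.07 to 0.33 for Hbegf and -0.19 to 0.79 for Nrg1, each highest without control replicate 2. Single values past 0 there were -0.03 for Ereg without knockout replicate 2, and -0.05 (Hbegf) and -0.17 (Nrg1) without control replicates 1 and 3. Knockout against parental, Hbegf ran from -0.01 to 0.07. Control against parental, the ranges were -0.43 to 0.22 for Egfr, -0.19 to 0.40 for Ereg, -0.04 to 0.42 for Btc and -0.30 to 0.09 for Hbegf (0.08 without control replicate 1). Egfr there was -0.09 with limma voom and without parental replicate 3, -0.05 with the replicate block and -0.03 with total counts. Depth limits Epgn, Nrg3, Nrg4 and Erbb4, which did not pass the filter on low counts.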
